A study of Mus musculus with 23 samples.

Results

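Zscan4c, Zscan4d, Zscan4f, Tcstv1 and Tcstv3 are genes of the two-cell-like state of mouse embryonic stem cells (ESCs), and their expression was followed through 6 RNA-seq samples of Kdm2b fl/fl ESCs. The members were chosen by name, as the rows of the expression tables that carry these 5 gene symbols. All 5 of 5 were measured, of 23369 gene names in the tables, and all 5 passed the filter on low values (at least 0.5 FPKM in at least 3 of the 6 samples), as did 12997 gene names in all. FPKM divides the fragments of a gene by its length and by the size of the library.

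The two-cell-like state is a rare and transient condition of cultured ESCs, in which single cells switch on genes that the embryo transcribes when its own genome is first activated. Zscan4 genes encode SCAN-domain zinc finger proteins that are known for lengthening telomeres by recombination and for genome stability in ESCs, and Tcstv genes encode small proteins of the same early embryonic stage. The transcription factor Dux activates both families, whereas chromatin repressors hold the state back in most cells. In bulk RNA, fewer cells in the state and less RNA in each such cell cannot be told apart.

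Untreated cells gave 3 of the samples, and the other 3 had been treated with tamoxifen for 72 hr, and each group holds replicates 1, 2 and 3. Both groups are the same ESC line, with loxP sites in both alleles of Kdm2b around the exon for most of the ZF-CxxC domain and with Cre recombinase fused to the ERT2 receptor domain at the Rosa26 locus, so that tamoxifen deletes the exon. The cells were kept on inactivated fibroblast feeders with serum and LIF, and settled overnight without feeders before treatment. KDM2B is the CpG-binding subunit of a variant polycomb repressive complex 1, and the comparison asks what its loss from chromatin does to expression. No group had tamoxifen without the floxed exon, so an effect of tamoxifen or of active Cre and an effect of the deletion cannot be told apart, and 1 line was used. Groups follow the sample labels. File names read the other way for all 6 samples, and under that reading every difference given here changes its sign and keeps its size. The labels give the dose as 800 nM 4-hydroxytamoxifen, while the text of the series gives it in µM.

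The sequences of the 3 Zscan4 members bear on how far their reads can be assigned. In mm9 (transcripts from GENCODE), Zscan4c lies at chr7:11591094-11595896 on the plus strand, Zscan4d at chr7:11746992-11751497 on the minus strand and Zscan4f at chr7:11983264-11987667 on the plus strand, each with 4 exons. No other gene name overlaps a member. The 6 listed copies, Zscan4a to Zscan4f, span 608078 bp with 0 other gene names between them. The nearest genes on both sides, among them Nlrp4b and Vmn1r71, had an FPKM of 0 in every sample. Tcstv1 (37344 to 38715) and Tcstv3 (3053 to 4452) lie on the unplaced sequence chrUn_random, for which no reference sequence was used here.

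The coding sequences of Zscan4c, Zscan4d and Zscan4f are each 1521 bases long. Zscan4c and Zscan4f differ at 6 positions (99.6% identity), and Zscan4d differs from each of them at 35 positions (97.7% identity). The first 51 coding bases, one read length, show the extreme of likeness. They lie in exon 2, carry no difference between the members and occur at 9 places in the genome.
Zscan4c (chr7:11591905-11591955), Zscan4d (chr7:11750647-11750697) and Zscan4f (chr7:11984098-11984148): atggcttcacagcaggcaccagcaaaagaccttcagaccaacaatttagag
The window in which the members differ most is shown next, coding bases 1041 to 1091 in exon 4. Capitals mark the 6 positions at which the 3 copies are not all alike. The Zscan4c and Zscan4d windows each occur at 1 place in the genome and the Zscan4f window at 3 places.
Zscan4c (chr7:11594865-11594915): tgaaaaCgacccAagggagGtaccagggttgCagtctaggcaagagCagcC
Zscan4d (chr7:11747700-11747750): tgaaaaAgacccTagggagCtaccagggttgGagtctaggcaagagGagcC
Zscan4f (chr7:11987058-11987108): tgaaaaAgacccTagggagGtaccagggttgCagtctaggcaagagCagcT

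Over whole transcripts, 77.8% of the 51-base windows of Zscan4c, 43.2% of those of Zscan4d and 84.4% of those of Zscan4f were found in another of the 3 members. With the transcripts of Zscan4b, Zscan4e and Zscan4-ps2 counted too, these shares were 81.0%, 46.8% and 95.3%. Zscan4a was not among the transcripts searched, so these shares could be higher with it. No window occurred in an annotated protein-coding transcript outside the family. Of the windows that do not cross a splice junction, 15.7% of Zscan4c, 50.9% of Zscan4d and 3.12% of Zscan4f lay at a single place in the genome. Zscan4d is therefore the copy with the most windows of a single place, and almost all such windows of Zscan4f occur at more than 1 place. The reads were paired, so that a fragment can also be placed by its other end, and sharing of whole fragments was not computed. How the authors' alignment and cuffdiff run divided reads of shared sequence was not tested, and values of single copies are uncertain for that reason.

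**Figure D1:**
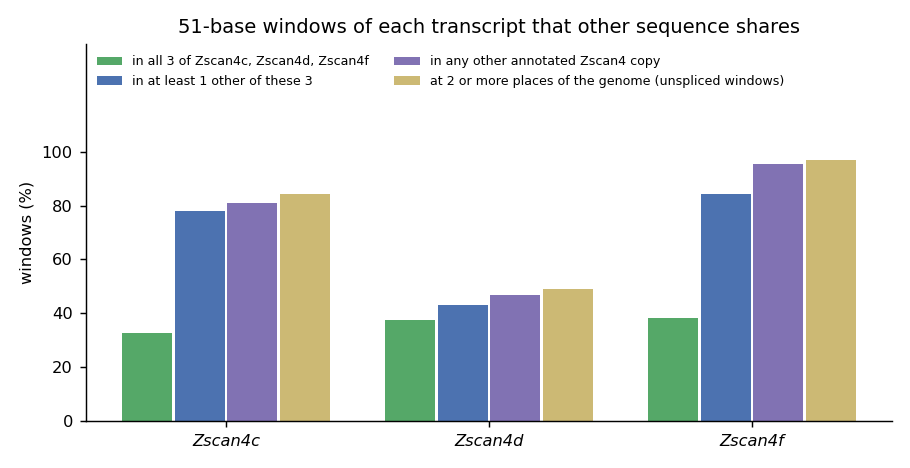
Percent of the 51-base windows of the Zscan4c, Zscan4d and Zscan4f transcripts that are found in all 3 members, in at least 1 other member, in any other annotated Zscan4 copy searched, or at 2 or more places of the genome (of windows that do not cross a splice junction). The copies searched were the members, Zscan4b, Zscan4e and Zscan4-ps2, without Zscan4a. Zscan4d has the lowest shares of the last 3 kinds and Zscan4f the highest.

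The 3 Zscan4 copies also share their promoters. RefSeq promoters (build GRCm38.p6, 250 bases before to 50 after the start) were found for 3 of the 5 members, namely the Zscan4 copies. Aligned without gaps, they were 99.3% identical between Zscan4c and Zscan4f, 97.2% between Zscan4c and Zscan4d and 97.4% between Zscan4d and Zscan4f. The last 100 bases before each annotated start are printed, with the letters TATAAA in capitals.
Zscan4c (GRCm38.p6, chr7:11005645-11005744, plus strand): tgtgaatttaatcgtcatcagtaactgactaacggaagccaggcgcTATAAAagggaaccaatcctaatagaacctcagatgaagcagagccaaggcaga
Zscan4d (GRCm38.p6, chr7:11166149-11166248, minus strand): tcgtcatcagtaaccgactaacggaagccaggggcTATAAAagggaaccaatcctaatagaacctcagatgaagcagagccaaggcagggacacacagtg
Zscan4f (GRCm38.p6, chr7:11397815-11397914, plus strand): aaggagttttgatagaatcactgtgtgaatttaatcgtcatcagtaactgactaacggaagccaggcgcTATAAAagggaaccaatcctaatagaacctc
Each promoter held 1 match to TATAAA, on the strand of the gene, whose first base lay 54, 65 and 31 bases before the annotated start of Zscan4c, Zscan4d and Zscan4f. The annotated starts thus lie at different distances from the match. On either strand, 13.6% of 32851 promoters of the same length hold TATAAA. The promoters had 4, 3 and 3 CpG dinucleotides in the order of the copies, against a median of 7 over all promoters. As few or fewer were found in 38%, 31.4% and 31.4% of all promoters, so such counts are common.

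All 5 genes were transcribed at a low level in both groups. Mean FPKM over the 6 samples was 2.72 ± 0.519 (SD, n = 6) for Zscan4f, 2.28 ± 0.546 for Tcstv1, 2.00 ± 0.353 for Zscan4c, 1.34 ± 0.228 for Zscan4d and 1.22 ± 0.252 for Tcstv3. Between 11.4% (Tcstv3) and 23.3% (Zscan4f) of the tested genes had a lower mean. Neighbours in this order were compared within samples by exact sign permutation, two-sided, together with Zscan4f against Zscan4c, which made 5 comparisons. The order came from the same 6 samples, so the pairs and their directions were not set beforehand. Between Zscan4 copies the values also depend on how shared reads were divided, which was not tested. Zscan4f was higher than Zscan4c, and Zscan4c higher than Zscan4d, in 6 of 6 samples (exact sign permutation p = 0.0312 for each, the smallest that 6 samples allow, adjusted p = 0.0781). Zscan4f and Tcstv1 kept their order in 4 of 6 samples, Tcstv1 and Zscan4c in 4 of 6 and Zscan4d and Tcstv3 in 3 of 6, with adjusted p of 0.469, 0.508 and 0.531 in the same exact test. The order of these last pairs did not hold beyond the spread between samples, and no pair had an adjusted p below 0.05. The test took the 6 samples as independent, although samples with the same replicate number moved together across genes.

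**Figure D2:**
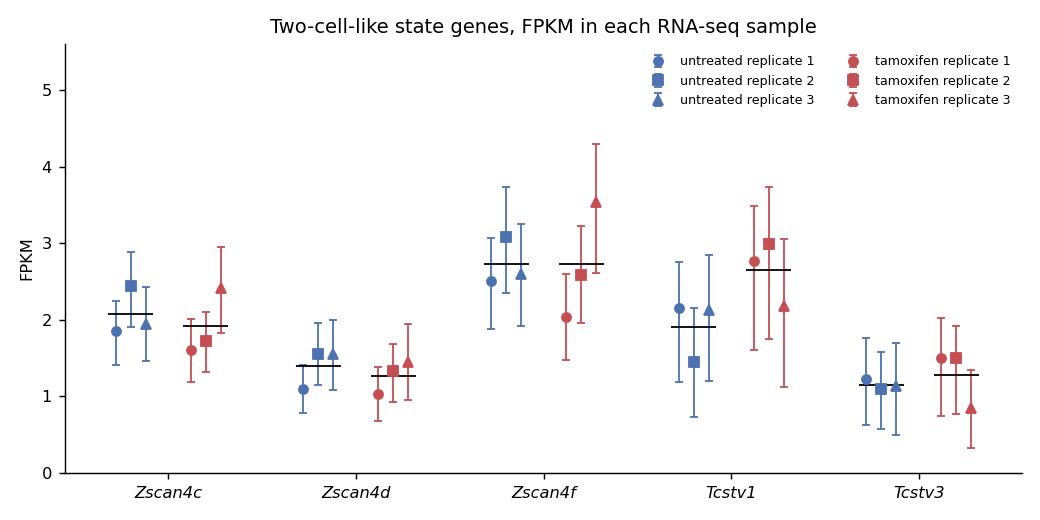
FPKM of each member in the 3 untreated and 3 tamoxifen samples, with the 95% interval deposited by the authors (thin bars) and the group mean (black line). The values of the groups overlap for Zscan4c, Zscan4d, Zscan4f and Tcstv3, and the 3 tamoxifen values of Tcstv1, 2.18 to 2.99, lie above the 3 untreated ones, 1.45 to 2.15.

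The first comparison, tamoxifen against untreated, passed the test for none of the 5 members. It was made on log2(FPKM + 0.1) with limma, and an adjusted p below 0.05 was the threshold. By that rule 0.0308% of all tested genes were called, 3 higher (0.0231%) and 1 lower (0.00769%). Since replicates with 1 number moved together across genes, the numbers were also entered as a block, and that fit called 10.4% of the genes, 563 higher (4.33%) and 787 lower (6.06%). With both the block and scaling to TPM (transcripts per a fixed total), 430 genes were higher and 336 lower. Again none of the 5 members was called. Without adjustment, too, 0 of the 5 had a p under 0.05 in limma in these main fits with and without the block. The lowest was 0.0569 in limma, for Tcstv1 with the block, and it fell below 0.05 in some other settings given at the end.

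Zscan4c had an FPKM of 1.85, 2.44 and 1.95 in untreated replicates 1, 2 and 3 and of 1.60, 1.73 and 2.42 in the tamoxifen replicates. Untreated replicate 2 and tamoxifen replicate 3 were the high samples and the groups overlapped. The log2 difference, tamoxifen minus untreated, was -0.12 with a standard error of 0.28 (limma adjusted p = 0.999, or 0.692 with the block). Within replicate numbers 1, 2 and 3 it was -0.19, -0.47 and 0.30, so the sign was not shared by the 3 pairs.

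Zscan4d, the member with the largest share of windows at a single place, had an FPKM of 1.09, 1.56 and 1.56 in the untreated replicates. In the tamoxifen replicates its FPKM was 1.03, 1.33 and 1.45. The groups overlapped, and replicate 1 was the lowest of its group in both. The log2 difference was -0.13 with a standard error of 0.30 (limma adjusted p = 0.999, or 0.65 with the block). It was lower in tamoxifen within each of the 3 replicate numbers, by small amounts, with values of -0.07, -0.21 and -0.10.

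Zscan4f had an FPKM of 2.5, 3.08 and 2.59 in the untreated replicates and of 2.04, 2.59 and 3.54 in the tamoxifen replicates. The tamoxifen group held both the lowest and the highest of the 6 values, in replicates 1 and 3. Both group means were 2.72, with an SD of 0.309 in untreated and 0.76 in tamoxifen samples, and the log2 difference was -0.03 with a standard error of 0.28 (limma adjusted p = 1.000, or 0.933 with the block). Within replicate numbers it was -0.28, -0.24 and 0.43.

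Tcstv1 was the member with the widest gap between the groups. Its FPKM was 2.15, 1.45 and 2.13 in the untreated replicates and 2.77, 2.99 and 2.18 in the tamoxifen replicates. The groups did not overlap, which was so for 8.49% of all tested genes, 3.09% with higher and 5.4% with lower values in tamoxifen. However, the lowest tamoxifen value and the highest untreated one were 2.18 and 2.15. With scaling to TPM the groups overlapped, since untreated replicate 1 then lay above tamoxifen replicates 2 and 3. The log2 difference was 0.46 with a standard error of 0.28, and limma gave an adjusted p of 0.999, or 0.18 with the block. An exact permutation test of the 6 values, two-sided, gave p = 0.1, the smallest that 3 against 3 allow. Tcstv1 was higher in tamoxifen in each of the 3 pairs, by 0.35, 1.00 and 0.03 on the log2 scale, and pair 2 thus carried most of the difference.

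Tcstv3, the other member of its family, had an FPKM of 1.23, 1.09 and 1.13 in the untreated replicates and of 1.5, 1.49 and 0.85 in the tamoxifen replicates. Tamoxifen replicates 1 and 2 lay above every untreated sample and tamoxifen replicate 3 below them all. The log2 difference was 0.11 with a standard error of 0.32 (limma adjusted p = 0.999, or 0.774 with the block), and it was 0.27, 0.42 and -0.38 within the replicate numbers.

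The 95% intervals give the range of folds that the error allows. With the block, the interval of the fold, tamoxifen over untreated, ran from 0.676 to 1.25 for Zscan4c, from 0.691 to 1.21 for Zscan4d and from 0.732 to 1.31 for Zscan4f. For Tcstv1 it ran from 0.988 to 1.92 and for Tcstv3 from 0.757 to 1.53. Without the block they were wider, from 0.586 to 1.44 for Zscan4c, from 0.568 to 1.47 for Zscan4d, from 0.626 to 1.53 for Zscan4f, from 0.879 to 2.15 for Tcstv1 and from 0.646 to 1.79 for Tcstv3. All are on the log2(FPKM + 0.1) scale, and all include 1.

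**Figure D3:**
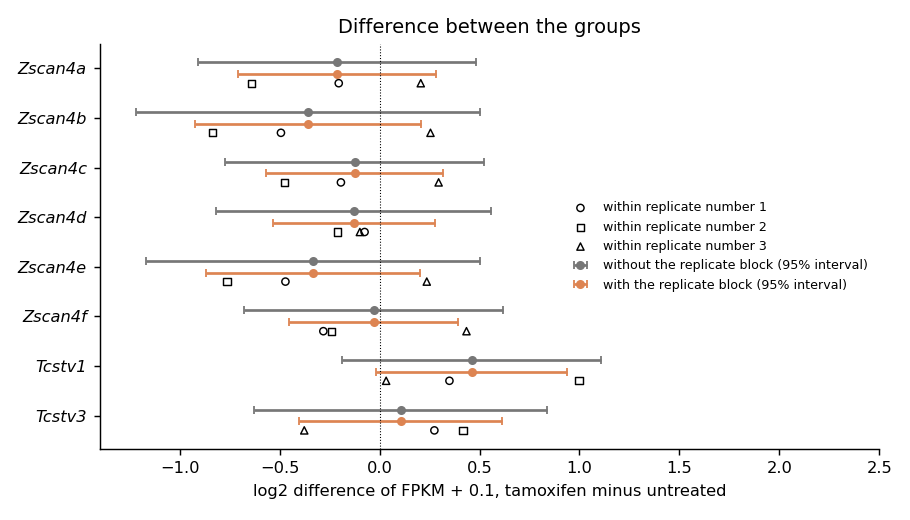
Log2 difference of FPKM + 0.1, tamoxifen minus untreated, of the 6 Zscan4 copies and both Tcstv genes, with 95% intervals from limma without (grey) and with (orange) the replicate block. Open symbols give the difference within each replicate number, and every interval spans 0.

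The other Zscan4 copies in the tables, which are no members, followed the same samples. Zscan4a, Zscan4b and Zscan4e had a mean FPKM between 1.1 and 1.56 in each group, log2 differences of -0.21, -0.36 and -0.33, and limma adjusted p of 0.53, 0.353 and 0.36 with the block. In FPKM as deposited, tamoxifen replicate 1 was the lowest of the 6 samples for all 6 copies. Untreated replicate 2 and tamoxifen replicate 3 were both among the highest 3 for each copy. Since the copies share reads, these are not independent measurements.

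Summing over copies makes the value less dependent on how reads were divided between the copies summed. Reads shared with Zscan4-ps2 or with other places in the genome can still fall outside the sum, and their part was not tested. The 6 Zscan4 copies together had an FPKM of 8.90, 12.8 and 10.2 in the untreated replicates and of 7.28, 8.93 and 12.3 in the tamoxifen replicates. The groups overlapped, and the log2 ratio of the group means was -0.16. Within the sum, Zscan4f held 24.1% to 29% in every sample, Zscan4c 19.0% to 22.0% and Zscan4d 11.8% to 15.2%. The share of Zscan4a was 12.3% to 14.8%, that of Zscan4b 9.77% to 14.9% and that of Zscan4e 11.1% to 16%. The sum itself varied 1.76-fold from the lowest to the highest sample.

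Tcstv1 and Tcstv3 together had an FPKM of 3.38, 2.54 and 3.26 in the untreated replicates and of 4.27, 4.49 and 3.03 in the tamoxifen replicates. Tamoxifen replicates 1 and 2 were above the other 4 samples, and the groups overlapped through tamoxifen replicate 3. The log2 ratio of the group means was 0.36, and the ratios within replicate numbers were 0.34, 0.82 and -0.11. No test was made on the sums.

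**Figure D4:**
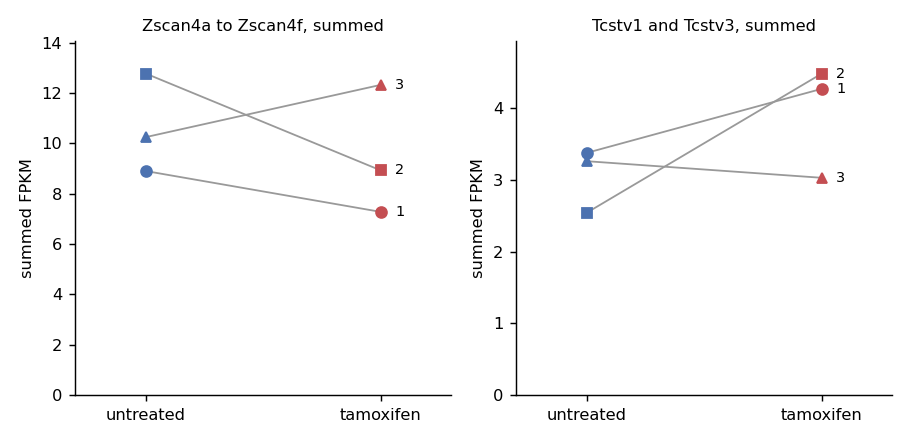
Summed FPKM of Zscan4a to Zscan4f (left) and of Tcstv1 and Tcstv3 (right) in untreated (blue) and tamoxifen (red) samples, with lines joining samples of the same replicate number, written at the right. In pairs 1 and 2 the Zscan4 sum was lower and the Tcstv sum higher in tamoxifen, and in pair 3 both went the other way.

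In FPKM as deposited, the families did not rise and fall together across the 6 samples. The sample with the highest Zscan4 sum, untreated replicate 2, had the lowest Tcstv sum. The sample with the lowest Zscan4 sum, tamoxifen replicate 1, had the next to highest Tcstv sum. This order depends on scaling. The FPKM of all genes summed to 549152.8 in untreated replicate 1 and to 1045514.6 in untreated replicate 2, the lowest and highest totals. With sums scaled to these totals, the highest Zscan4 sum was that of tamoxifen replicate 3 and the lowest that of tamoxifen replicate 2. The Tcstv sum was between 0.199 (untreated replicate 2) and 0.587 (tamoxifen replicate 1) of the Zscan4 sum. These are 6 samples from 1 line in which the replicate number also moved many other genes, and the deposited 95% intervals were wide, reaching 20.2% to 34.0% of the value to each side for the Zscan4 members and 33.3% to 60.1% for the Tcstv members. Variation between samples was small for genes of this level. The SD of log2(FPKM + 0.1) over the 6 samples was 0.239, 0.238, 0.262, 0.35 and 0.285 for Zscan4c, Zscan4d, Zscan4f, Tcstv1 and Tcstv3, against a median of 0.451 for the 2083 tested genes with a mean of 1 to 3 FPKM.

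Genes with the most similar pattern were looked for among the 12992 tested genes that are no members, by the root mean square difference between centred log2(FPKM + 0.1) profiles over the 6 samples. Nearest to the mean Zscan4 profile were Tex9, 5730455P16Rik, 1700066J24Rik, Akap8 and Gm2016, at 0.0678 to 0.0845, against a median of 0.391 for all genes. Of the copies that are no members, Zscan4a was at place 16 of this order, Zscan4e at place 1126 (0.205) and Zscan4b at place 1642 (0.227). Nearest to the mean Tcstv profile were Mtrf1l, Gm8300, Frmpd1, BC055111 and Zfp14, at 0.0424 to 0.122, against a median of 0.401. Tcstv1 and Tcstv3 were each at 0.131 from that mean, farther than the genes just named. Zscan4c, Zscan4d and Zscan4f were at 0.0648, 0.105 and 0.0738 from the mean Zscan4 profile. Zscan4d was thus farther from it than Tex9, Gm2016 and the genes listed between them, and Zscan4c was nearer. Whether such closeness over 6 samples exceeds chance was not tested. Gm2016 and Gm8300 are themselves on the list of two-cell-state genes described next.

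Beyond both families, 24 of 35 measured genes of the two-cell state were below the filter on low values. Of 52 listed genes, 43 were measured and 19 passed the filter, among them all 8 Zscan4 and Tcstv copies. Of the 35 outside both families, 18 stayed under 0.5 FPKM in all 6 samples, and 2 had an FPKM of 0 in every sample. Among the 18 were Dux itself at 0.0511 to 0.162 and the zinc finger gene Zfp352 at 0.0717 to 0.329. The median log2 difference of the 19 was -0.12, against -0.02 for all tested genes, and it was 0.00 for the 11 that belong to neither family. Limma called 0 of the 19 without the block. With the block it called 0 higher and 1 lower, against 10.4% of all tested genes, so that the list held no more calls than the background.

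The 1 lower gene was Ddit4l, which encodes an inhibitor of mTOR signalling and is also expressed outside the two-cell state. Its FPKM was 5.64, 4.00 and 7.59 in the untreated replicates and 4.07, 2.82 and 3.74 in the tamoxifen replicates. The groups overlapped, and the log2 difference was -0.65 with a standard error of 0.15 with the block (limma adjusted p = 0.0359, or 0.999 without the block). In fits with the block, the call was lost under quantile normalization, under scaling to TPM and without replicate 3.

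**Figure D5:**
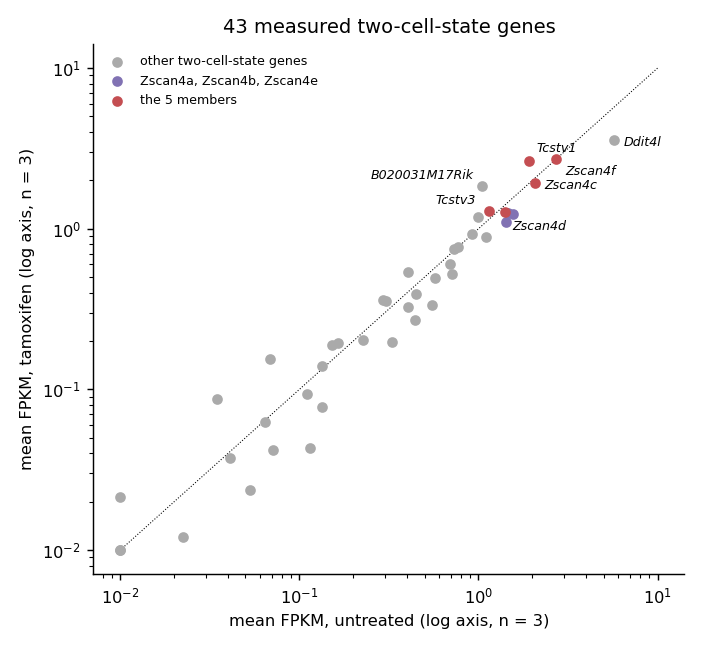
Mean FPKM of the 43 measured two-cell-state genes in untreated (x) and tamoxifen (y) samples, on log axes, with means under 0.01 drawn at 0.01 and the line of equal values dotted. The 5 members (red) lie among the genes of highest level on the list, near the line.

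Regulators of the state were counted from lists. Of 6 activators, 4 were tested and 0 were called, with or without the block. Dppa2 and Dppa4, which encode activators of Dux, had log2 differences of 0.05 and 0.11, and Nelfa one of 0.31 (limma adjusted p = 0.785, 0.493 and 0.117 with the block). In the block fit without replicate 1, Nelfa was called higher (limma adjusted p = 0.0262). Of 30 repressors, all tested, 0 were called without the block and 2 were higher and 1 lower with it. These 3 of 30 stand against 10.4% of all tested genes called with the block, 4.33% higher and 6.06% lower, and so are a share near the background. Trim28, a corepressor of retroelements, had an FPKM of 384 ± 71.9 in untreated and 513 ± 32.4 in tamoxifen samples (SD, n = 3 each, limma adjusted p = 0.0477 with the block). Chaf1b, a subunit of chromatin assembly factor 1, had a log2 difference of 0.44 (limma adjusted p = 0.0366 with the block). With the block, both calls were lost without replicate 3 and with quantile normalization, and that of Chaf1b also with scaling to TPM. Also with the block, Sumo2 was called higher with a pseudocount of 1 and Kdm1a without replicate 1.

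Myc, a transcription factor that also sits on this list, fell. Its FPKM was 11.4, 16.1 and 29.6 in the untreated replicates and 5.62, 9.04 and 17.2 in the tamoxifen replicates. The groups overlapped, each tamoxifen value was lower than the untreated value of its number, and the log2 difference was -0.87 with a standard error of 0.10 with the block (limma adjusted p = 0.00489, or 0.999 without the block).

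Of 8 genes of telomeres and meiotic recombination, processes linked to Zscan4, 7 were tested and 0 were called without the block. With the block 1 of the 7 was higher, where 4.33% of all tested genes were, and a single gene says nothing of the list. This gene was Smc1b, a cohesin subunit of meiotic cells. Its FPKM was 0.971, 0.614 and 0.589 in the untreated replicates and 3.58, 1.25 and 1.23 in the tamoxifen replicates. The groups did not overlap in FPKM, but with scaling to TPM untreated replicate 1 lay above tamoxifen replicate 2. The log2 difference was 1.22 with a standard error of 0.23 with the block (limma adjusted p = 0.0208, or 0.845 without the block). Tert and Terf1, a telomerase subunit and a telomere-binding protein, had log2 differences of -0.12 and 0.25 (limma adjusted p = 0.646 and 0.17 with the block). Without replicate 2 none of the calls on these lists remained in the fit with the block.

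Measurements on the whole samples that stand beside these values are the following. Kdm2b itself had an FPKM of 25.4 ± 3.36 in untreated and 22.3 ± 2.6 in tamoxifen samples (SD, n = 3 each, log2 difference -0.19), a value of the whole gene that does not resolve the floxed exon. Relative depth, read from single-fragment steps in low values, was 0.653 to 1 of that of untreated replicate 1, and read counts are not in the tables. All 10 ESC markers were present, with Pou5f1 at 369 to 832 FPKM, and limma called none of them with or without the block. In fits with the block, Nanog was called higher with scaling to TPM (limma adjusted p = 0.0223) and without replicate 1 (limma adjusted p = 0.00814). Of 12 fibroblast markers, 11 were tested and 0 were called with or without the block. Acta2 was called lower in the block fit without replicate 1 (limma adjusted p = 0.000507). The summed FPKM of the 12 was 55.5 to 149 in untreated and 89.5 to 122 in tamoxifen samples. The defining markers Col1a1 and Col1a2 were at 15.55 to 40.33 and 11.51 to 33.19 FPKM, both lowest in replicate 1 of each group. Lum was low, and at 0 in untreated replicate 1. The part of fibroblast RNA in the values of the 5 members was not tested.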

How the data were processed

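PolyA+ RNA of 3 untreated and 3 tamoxifen-treated cultures, labelled as biological replicates, was sequenced as directional paired-end 51-base libraries. According to the methods and the submitters' processing notes, reads were mapped by the authors with TopHat2 (version 0.5) against mm9, and values came from Cuffdiff 2.1.1 with refGene models. The deposited tables hold FPKM with a 95% interval and a status, in 23874 rows per sample. Rows of the same gene name were summed, and 6 gene names with a failed status were left out. Total read numbers are not given in the sources used here.

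The test of tamoxifen against untreated took log2(FPKM + 0.1) as input to limma, version 3.58.1, run in R 4.3.3 (lmFit, eBayes with a trend, two-sided, Benjamini-Hochberg over 12997 genes with at least 0.5 FPKM in at least 3 of 6 samples). Differences are on that scale, which understates changes of low genes. The fits were also run on simulated data with planted changes larger than the difference of any member, which does not show how well changes as small as theirs are found. Deviations of same-numbered samples from their group means correlated with 0.544, 0.605 and 0.506 over 12997 genes, so the numbers pair the samples, and the fit with the replicate block is given beside the other. Alternatives were other pseudocounts (1 and 0.01), scaling to TPM, quantile normalization, other filters, the highest row per gene name, eBayes without a trend and leaving out samples. The replicate block combined with another setting was added after seeing the data. Windows of 51 bases were searched in NCBIM37 and GENCODE transcripts with Python 3.11.15. Other genes named are, by rule, the other Zscan4 copies, called or highly expressed genes of each list, the 5 nearest profiles, and Kdm2b. B020031M17Rik, Zfp352, Dux, Tert, Terf1, Nanog, Sumo2, Kdm1a, Lum, Nlrp4b and Vmn1r71 fall outside it and were named after their values were seen. The members and lists were chosen with earlier results of these data known. The ChIP-seq samples were not used here.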

Additional observations from a re-analysis of the deposited data

How the results depend on the processing

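No member was called in any of 25 settings that were fitted across all genes; the lowest limma adjusted p was 0.113, for Tcstv1 with the replicate block and quantile normalization. The replicate block changed no call of a member. Tcstv1 stayed higher in all 25 alternatives to its reported value, from 0.19 to 0.67 on the log2 scale. Its unadjusted limma p with the block was 0.0218 with quantile normalization, 0.0459 with a pseudocount of 1 and 0.0491 with scaling to TPM. With the block and a replicate number left out, its unadjusted limma p was 0.0384 without replicate 1, 0.412 without replicate 2 and 0.0173 without replicate 3. The other members changed sign in some alternatives. Zscan4c was 0.0090 with quantile normalization, with and without the block, and ran from -0.33 to 0.051 (without replicate 2, also with the block) when samples or a replicate number were left out. Zscan4f was 0.069 with TPM scaling and 0.083 with quantile normalization, each with and without the block, and ran from -0.26 to 0.15 over the same omissions, with 0.097 without replicate 1 and 0.077 without replicate 2, also with the block. Zscan4d ran from -0.29 to 0.0025 and Tcstv3 from -0.051 (without replicate 2, also with the block) to 0.36. Under the stricter filter, 1 FPKM or more in every sample, Tcstv3 had no value. The log2 ratio of the sums stayed between -0.42 and 0.03 for Zscan4a to Zscan4f, with the sign turned only without replicate 2, and between 0.14 and 0.57 for the Tcstv genes. Leaving out a replicate number leaves 2 samples per group, and limma then shares the estimate of the spread across genes.

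Counts over all genes changed more. The replicate block gave 563 higher and 787 lower genes, with quantile normalization 604 and 595, with a pseudocount of 1 it gave 659 and 931, with TPM scaling 430 and 336, and without replicate 1, 2 or 3 it gave 744, 36 or 359 higher and 1011, 43 or 478 lower genes. Without the block the counts were 1 and 0 with no filter, 0 and 0 with the stricter filter, and 2 and 0 with a pseudocount of 1. They were 0 to 5 and 0 to 7 when samples were left out. Where limma called 0 genes, with the stricter filter, 410 had an unadjusted p under 0.05. The cause of these shifts was not tested, and the number of fragments behind a value limits what low genes can show.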

Other observations

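B020031M17Rik, a two-cell-state gene, was chosen after its values were seen. Like the Tcstv genes it is listed on chrUn_random, at 2889607 to 2891056, against 37344 to 38715 for Tcstv1. Its FPKM was 0.994, 1.04 and 1.12 in the untreated replicates and 2.18, 1.95 and 1.40 in the tamoxifen replicates. The groups did not overlap, which was so for 8.49% of all tested genes, 3.09% with higher values in tamoxifen. The log2 difference was 0.74 with a standard error of 0.21 with the block, which missed the threshold (limma adjusted p = 0.0615 with the block, 0.897 without it). With the block it was called with a pseudocount of 1 and without replicate 3, and not in the other settings with the block. It was higher in tamoxifen in 3 of 3 pairs.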
